A study of Homo sapiens with 8 samples.

Results

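The translation efficiency (TE) of a message is the amount of it found under ribosomes relative to the amount of it in the cell, and its change on loss of METTL5 was measured here for 8980 genes. These are the well-read genes of a ribosome profiling table of 11244 genes, chosen for a mean of at least 50 normalized reads over the 4 input libraries and also over the 4 libraries of ribosome-protected fragments (RPF). The TE change is an interaction on the log2 scale, the METTL5-KO minus METTL5-WT difference in RPF less the same difference in input, so that a gene whose RNA and footprints moved together has a value of 0. Each change was taken once from the values as scaled and once after removal of the trend of each library on the GC content of the coding sequence.

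METTL5 is a methyltransferase that works with its partner TRMT112 to place an N6-methyladenosine in 18S rRNA, close to the site where the small ribosomal subunit reads the codon. A ribosome shields the stretch of message that it covers from nuclease, and sequencing these footprints shows which messages are being translated. The input library of the same lysate reports the RNA itself, and the ratio of footprints to RNA separates a change in translation from a change in RNA level.

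Both groups were cells labelled HepG2, a line from a human liver tumor. METTL5-WT cells carried the intact gene, and METTL5-KO cells had lost internal METTL5 exons to CRISPR-Cas9. All cells in both groups received cycloheximide, which stops ribosomes on the message. Each of the 2 genotypes gave 2 lysates, and each lysate gave 1 input library, set aside before nuclease digestion, and 1 RPF library, cut from the monosomes that the nuclease left, so that 4 lysates and 8 libraries entered the comparison. According to the paper, HepG2 lines of both genotypes were grown from isolated single clones. Which clone gave which replicate is not stated, so that genotype and clone cannot be told apart. Nothing states that the replicates were separate cultures, and the p-values given here measure only the spread between these samples.

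The libraries held between 10062407 and 14371657 reads for input and between 3970779 and 9255921 for RPF, with both METTL5-KO RPF libraries deeper than both METTL5-WT ones. A single read was worth between 0.502 and 2.38 normalized reads. The label of the cells was checked against 10 liver markers, AFP, ALB, APOA1, APOA2, APOB, TTR, FGB, SERPINA1, HNF4A and GPC3, and none of them passed 9 counts in any input library. Their summed counts were 4 and 3 in METTL5-WT against 8 and 14 in METTL5-KO, in libraries of 10710226 to 15307257 counts. The defining genes of liver cells were thus at or near 0, and the liver-related lists below describe genes of cells without these markers. Of the markers of other cells, COL1A1 lay between 429 and 937 counts and DCN between 83 and 170, while COL1A2, THY1, PTPRC, CD3E, PECAM1, KRT5, KRT14, TP63, CDH5 and CD14 stayed at 11 or fewer.

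Before any gene is described, 1 library property must be given. Between the METTL5-KO input libraries, the difference of replicate 2 from replicate 1 followed coding GC content with a rank correlation of 0.682 across 8975 genes. The same correlation was 0.083 for METTL5-WT input, -0.143 for METTL5-WT RPF and 0.154 for METTL5-KO RPF. It is across genes of 1 pair of libraries each, and genes are not independent replicates. The second METTL5-KO input library was therefore richer in GC-rich messages than its replicate, and counts of changed genes are given with and without that lysate.

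The GC term uses the GC content of the whole coding sequence, of which only the start is shown here. Examples are 3 genes of large TE rise and the 3 of largest fall among those named below as called with and without correction. Their first 60 coding bases are printed. They come from the canonical transcripts of GENCODE 44 on the hg38 build, 5′ to 3′, and may cross a splice junction. Capitals mark a G or C at the third position of a codon, the position that varies most freely.

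MGST1: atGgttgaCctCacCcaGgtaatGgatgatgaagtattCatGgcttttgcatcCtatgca
SMIM20: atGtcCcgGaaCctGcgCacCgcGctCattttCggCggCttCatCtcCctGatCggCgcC
UBL5: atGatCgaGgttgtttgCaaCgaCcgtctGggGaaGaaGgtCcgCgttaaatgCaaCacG
IFI44L: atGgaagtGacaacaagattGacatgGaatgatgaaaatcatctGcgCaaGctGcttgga
GDF11: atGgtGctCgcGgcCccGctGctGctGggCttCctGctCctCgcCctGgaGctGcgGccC
METTL5: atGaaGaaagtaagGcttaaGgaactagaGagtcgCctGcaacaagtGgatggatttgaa

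Of the 20 codons shown for each gene, 9 end in G or C in MGST1, 19 in SMIM20, 15 in UBL5, 8 in IFI44L, 20 in GDF11 and 8 in METTL5. Over the whole coding sequence the GC content was 42.2%, 52.7%, 47.9%, 38.7%, 63.6% and 38.3% in the same order. The 3 falls lay on both sides of the median over all well-read genes, 51.7%, and so did the 3 rises.

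The targeted gene comes first. METTL5 (chr2:169810081-169824931, minus strand) had 490 and 542 input reads in METTL5-WT against 208 and 151 in METTL5-KO. In RPF it had 158 and 226 reads against 41 and 21. Both layers were lower in each knockout lysate, and the groups did not overlap. Its METTL5-KO RPF values, 49.4 and 23.4, were under 50, so that METTL5 counts as well read in RPF only through its METTL5-WT libraries. Its input fell by 1.87 on the log2 scale (limma, adjusted p = 3.1e-04) and its RPF by 3.56 (adjusted p = 1.9e-07). The footprints fell beyond the RNA, and TE changed by -1.69 ± 0.42 (SE; limma interaction, adjusted p = 0.0324) and by -1.98 with the GC trend removed (adjusted p = 0.0162). The knockout removed exons of this same gene, and input was counted over exons, so that its ratio is not like for like between genotypes. Whether translation of the remaining message changed was not tested. The log2 TE of the lysates was 0.17 and 0.23 in METTL5-WT against -1.33 and -1.65 in METTL5-KO. It was not called without METTL5-KO replicate 2 or METTL5-WT replicate 2, and in 9 of 43 alternative settings in all, where its adjusted p reached 0.197.

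TRMT112, which binds METTL5 and several other methyltransferases, showed no detectable TE change. Its log2 TE was -0.59 and -0.97 in METTL5-WT against -0.55 and -1.01 in METTL5-KO, so that the groups overlapped. The change was -0.00 ± 0.19 (limma, adjusted p = 0.996), and with the GC trend removed 0.19 ± 0.16 (adjusted p = 0.566). METTL5 was also the only called gene among 16 well-read rRNA modifying enzymes, whose median TE change was 0.00 and 0.14 with the GC trend removed, and the former changed sign under TMM scaling.

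In all, 524 of the 8980 well-read genes changed in TE at an adjusted p under 0.05 (limma, Benjamini-Hochberg over all 11240 genes tested), which is 5.84%, against 4.79% of all genes tested. TE was higher in METTL5-KO for 299 of them (3.33%) and lower for 225 (2.51%). With the GC trend removed, 314 genes were called, 3.5% of the 8975 with a coding annotation and 2.84% of all genes tested, of which 227 (2.53%) were higher and 87 (0.969%) lower. The shift was small for most genes. The median TE change over all well-read genes was 0.04 (quartiles -0.25 and 0.31), and 0.03 with the GC trend removed (quartiles -0.20 and 0.25), beside a median standard error of 0.21. Only 40 of the genes with higher TE and 49 of those with lower TE changed by over 2-fold.

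A total of 205 genes were called in the same direction with and without the correction, 146 higher and 59 lower, and 0 were called in opposite directions. The correction kept 48.8% of the higher calls and 26.2% of the lower ones. A count model, edgeR's quasi-likelihood test on the reads recovered from the table, called 738 well-read genes (8.22%; 348 higher and 390 lower), and 488 with GC offsets (5.44%; 282 and 206). In all, 204 genes were called by limma and edgeR, each with and without GC. The split between directions depended on the scaling. Under quantile normalization 198 genes were higher and 275 lower, and 91 and 126 with the GC trend removed, so that the higher share went from 57.1% and 72.3% to 41.9% in both fits.

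The number of calls rested on every lysate, most of all on METTL5-KO replicate 2, and on the way the gene variances were pooled. Without METTL5-KO replicate 2, 4 genes were called in either fit, MGST1, UBL5 and NDUFA4 among them, while 1497 had an unadjusted p under 0.05, and 1174 with the GC trend removed. Without METTL5-KO replicate 1 the fit called 181 genes, and 9 with the GC trend removed. Without METTL5-WT replicate 1 it called 174 and 162, and without METTL5-WT replicate 2 it called 234 and 87. When limma did not let the variance follow the expression level, 1 gene was called, and 0 with the GC trend removed, beside 1781 and 1467 genes at an unadjusted p under 0.05 and 488 called by edgeR with GC offsets.

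The TE change was higher in genes poor in GC than in genes rich in it. When the well-read genes were ordered by coding GC and cut into 10 groups of equal size, the median TE change was 0.32 in the lowest (GC of 32.6% to 41.2%) and fell at every step to -0.37 in the highest (63.8% to 80.1%). The lowest group held 51 genes with higher and 3 with lower TE, and the highest held 3 and 92. In the lowest group the median log2 TE was -0.56 and -0.49 in METTL5-WT against -0.36 and -0.15 in METTL5-KO, and in the highest it was 0.87 and 0.77 against 0.53 and 0.32. GC-rich messages thus had the higher ratio of footprints to input in every lysate, by less in both METTL5-KO lysates. Input was counted over exons and no value was divided by length, so that a ratio compared between genes does not measure translation alone. The median input change ran from -0.19 in the lowest to 0.23 in the highest group, and the median RPF change from 0.13 to -0.15, so that both layers took part, in opposite directions.

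**Figure D1:**
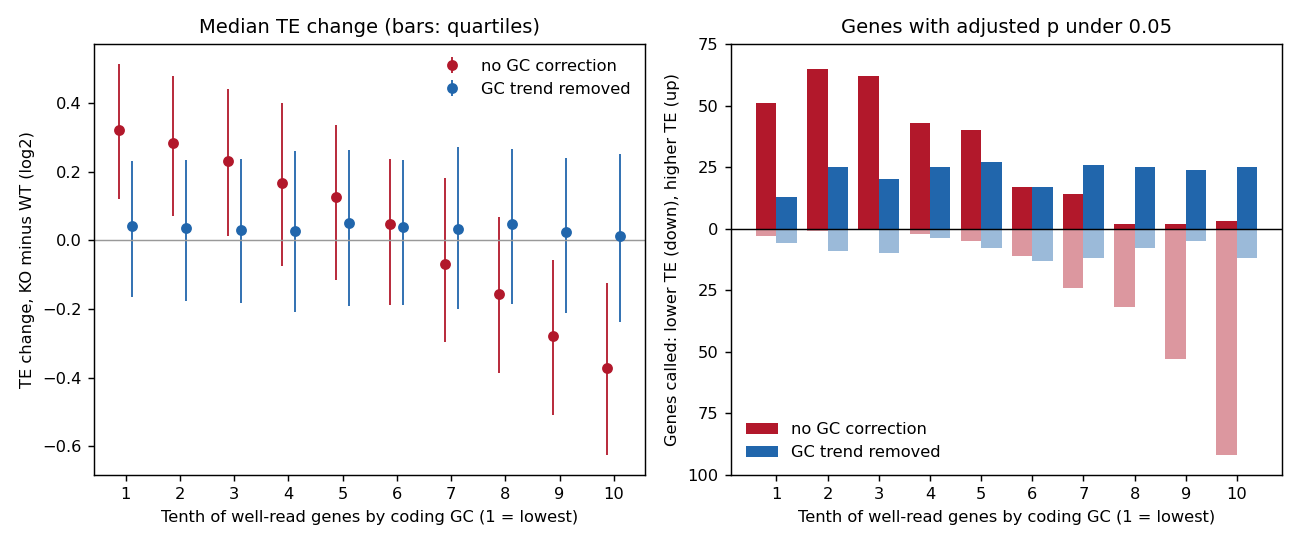
Left, median TE change (METTL5-KO minus METTL5-WT, log2) with bars to the quartiles in 10 equal groups of well-read genes ordered by coding GC, without correction (red) and with the GC trend removed (blue). Right, number of genes called with higher (up) and lower TE (down) in each group. The red medians fall from 0.32 to -0.37, and the blue ones lie between 0.01 and 0.05.

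With the trend removed, the medians of the 10 groups lay between 0.01 and 0.05, and calls were spread over them, with 13 higher and 6 lower in the lowest and 25 and 12 in the highest. Across genes, the rank correlation of TE change with coding GC was -0.545 before and -0.011 after removal. It was -0.385 without METTL5-KO replicate 2 and -0.612 without METTL5-KO replicate 1, and -0.437 and -0.557 without METTL5-WT replicates 1 and 2. The direction was the same without each lysate, the one with the GC-rich input library included. The part of that library in the TE change of single genes was not tested beyond these fits.

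A TE call can come from the footprints or from the RNA. Over all well-read genes, 32.3% changed in RPF and 19.5% in input, in either direction and without the GC correction (limma, adjusted p under 0.05). Of the 299 genes with higher TE, 252 (84.3%) were also called higher in RPF and 49 (16.4%) were called lower in input, with a median RPF change of 0.61 and a median input change of -0.14. Of the 225 with lower TE, 157 (69.8%) were called lower in RPF and 82 (36.4%) higher in input, with medians of -0.49 and 0.32. Without the correction, footprints thus made up most of either change, and RNA contributed more often to the falls. These shares carry the GC trend of the libraries. The 225 falls had a median coding GC of 63.0%, and the median input change was 0.23 in the highest GC group. Among the genes called in both fits the shares were 87.7% and 16.4% for the 146 rises and 81.4% and 35.6% for the 59 falls. The input and RPF changes of these genes are also uncorrected. All these values share their libraries with the TE test and are a description of it.

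**Figure D2:**
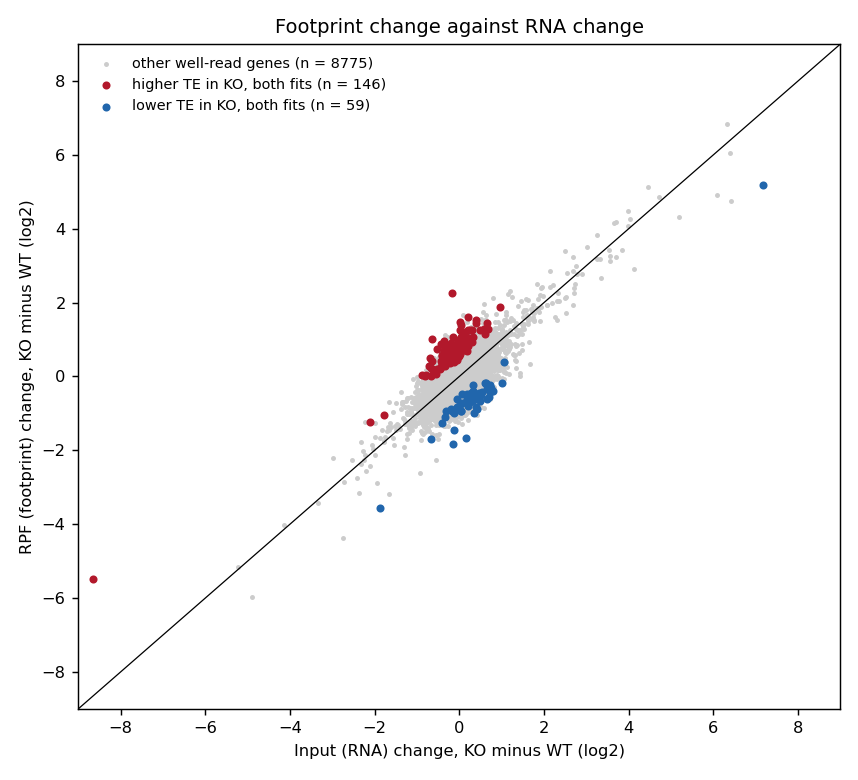
Change in RPF against change in input (METTL5-KO minus METTL5-WT, log2) for each well-read gene, with the 146 genes of higher TE (red) and the 59 of lower TE (blue) in both fits, and the line of equal change. Red points lie above the line and blue ones below it, most of them near 0 on the input axis, and MGST1 at an input change of -8.66 and IFI44L at 7.16 stand far out.

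UBL5, a ubiquitin-like protein of the spliceosome, had RPF values of 2844 and 2627 in METTL5-WT against 7676 and 7376 in METTL5-KO over input values of 1341, 1344, 1271 and 1430. Its TE rose by 1.45 ± 0.14 (limma, adjusted p = 3.26e-05; GC trend removed 1.33, adjusted p = 2.49e-04). NDUFA4, a subunit of cytochrome c oxidase, had RPF values of 8800 and 9354 against 27809 and 27850 over input values of 2096, 2139, 2412 and 2500. Its TE rose by 1.40 ± 0.13 (adjusted p = 3.26e-05; GC trend removed 1.26, adjusted p = 1.79e-04). In both genes the footprints of the groups lay far apart while the RNA stayed within a narrow range. NDUFB1, a subunit of complex I, had a log2 TE of 2.45 and 2.51 in METTL5-WT against 3.69 and 3.73 in METTL5-KO, and rose by 1.23 ± 0.15 (adjusted p = 5.28e-04).

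NME1, a nucleoside diphosphate kinase, had a log2 TE of 1.18 and 1.48 in METTL5-WT against 2.66 and 2.71 in METTL5-KO, and rose by 1.36 ± 0.16 (limma, adjusted p = 3.15e-04). It is close in sequence to its neighbor NME2, and reads shared between them could not be told apart here. SDHAF3, an assembly factor of succinate dehydrogenase, rose by 1.32 ± 0.27 (adjusted p = 0.0131), and APOOL, a protein of the inner mitochondrial membrane, by 1.30 ± 0.26 (adjusted p = 0.0123). TIPIN, which steadies stalled replication forks, rose by 1.27 ± 0.23 (adjusted p = 0.00701). All 4 were also called with the GC trend removed, at 1.33, 1.18, 1.08 and 1.00.

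Less well covered were the remaining rises. SMIM20 (chr4:25861830-25929813, plus strand), a small protein in the assembly of cytochrome c oxidase, had RPF values of 40 and 60 in METTL5-WT against 118 and 86 in METTL5-KO over input values of 234, 265, 166 and 151. The footprints were higher and the RNA lower in each METTL5-KO library, and TE rose by 1.67 ± 0.36 (limma, adjusted p = 0.0155; GC trend removed 1.65, adjusted p = 0.0242). MGST1 (chr12:16347142-16609259, plus strand), a microsomal glutathione transferase, had 2071 and 1848 input reads in METTL5-WT against 1 and 12 in METTL5-KO. RPF gave 778 and 806 reads against 45 and 23. Both layers had all but disappeared in METTL5-KO, and it is the RNA that was nearest to 0. Its TE change of 3.17 ± 0.65 (adjusted p = 0.0131) rests on these few input reads and is no bound: it was 3.83 with a pseudocount of 0.1, 2.09 with one of 5, 1.58 without METTL5-KO replicate 1 and 4.76 without replicate 2. MGST1 counts as well read only through its METTL5-WT libraries.

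The largest fall, that of IFI44L (chr1:78619902-78646145, plus strand), has the opposite form. This interferon-stimulated gene had 3 and 4 input reads in METTL5-WT against 818 and 966 in METTL5-KO, and 4 and 9 RPF reads against 432 and 459. RNA and footprints were both higher in METTL5-KO, the RNA by more, and the METTL5-WT ratio rests on few reads. The fitted TE change was -1.97 ± 0.46 (limma, adjusted p = 0.0247; GC trend removed -2.26, adjusted p = 0.0184), which is no bound either. It was -1.22 with a pseudocount of 5 (adjusted p = 0.0710), and IFI44L was not called without METTL5-KO replicate 1 (adjusted p = 0.193), without METTL5-KO replicate 2 (adjusted p = 0.312) or by limma-voom (adjusted p = 0.0519). IFI44L counts as well read only through its METTL5-KO libraries. GDF11 (chr12:55743122-55757264, plus strand), a secreted growth factor of the TGF-beta family, was low in footprints alone. Its RPF values were 71 and 92 in METTL5-WT against 24 and 26 in METTL5-KO over input values of 124, 138, 133 and 160. TE fell by 1.83 ± 0.38 (adjusted p = 0.0133; GC trend removed -1.49, adjusted p = 0.0423). In RPF, GDF11 counts as well read only through its METTL5-WT libraries.

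PIGW, an enzyme of GPI-anchor synthesis, had RPF values of 105 and 68 in METTL5-WT against 23 and 23 in METTL5-KO, and its TE changed by -1.66 ± 0.37 (limma, adjusted p = 0.0194). PRKAB1, a regulatory subunit of the energy sensor AMPK, had 119 and 140 against 46 and 48, and changed by -1.30 ± 0.31 (adjusted p = 0.0265). In both, the input values of the groups differed by less than the footprints. Both also count as well read in RPF only through their METTL5-WT libraries. BABAM1, a member of the BRCA1-A complex, was far better covered, with RPF values of 1604 and 1853 against 1118 and 1156 and input values of 190 and 184 against 297 and 293. Its RNA rose and its footprints fell, and TE changed by -1.25 ± 0.17 (adjusted p = 0.00157).

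The same opposed movement was seen in ADGRL1, an adhesion G protein-coupled receptor, with an input change of 0.69 (limma, adjusted p = 0.0035), an RPF change of -0.56 (adjusted p = 0.0090) and a TE change of -1.26 ± 0.21 (adjusted p = 0.00472). TE also fell for CDH24, a cadherin, by 1.35 ± 0.28 (adjusted p = 0.0131), for PARP6, an ADP-ribosyltransferase, by 1.28 ± 0.26 (adjusted p = 0.0131), and for GGA3, a sorting adaptor of the Golgi, by 1.22 ± 0.28 (adjusted p = 0.0212). With the GC trend removed, the changes of these 7 genes lay between -1.94 for PIGW and -0.93 for ADGRL1, all past the threshold.

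**Figure D3:**
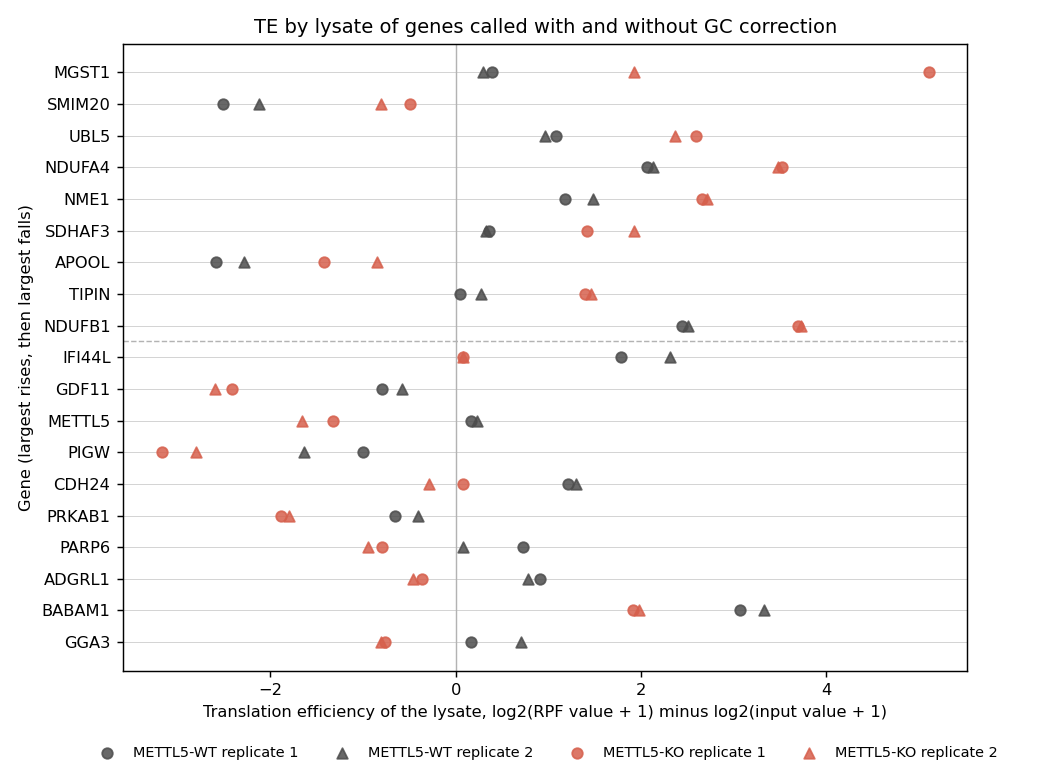
Log2 TE of each lysate for 9 genes of large rise and the 10 with the largest fall among those called with and without the GC correction, METTL5-WT in gray and METTL5-KO in red, with circles for replicate 1 and triangles for replicate 2. NDUFB1 lies at 2.45 and 2.51 in METTL5-WT against 3.69 and 3.73 in METTL5-KO, while MGST1 is spread from 1.92 to 5.11 between the METTL5-KO lysates.

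All 524 called genes had METTL5-KO lysates that did not overlap METTL5-WT lysates in TE, as had 56.5% of all well-read genes, and with 2 lysates a group an exact permutation test could not go below p = 0.333.

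The correction removed 319 calls, 153 higher and 166 lower, and 2 of these have no coding annotation. The removed rises had a median coding GC of 43.5% and the removed falls one of 63.7%, against 51.7% over all well-read genes. The largest removed rises were those of UBE2D1, a ubiquitin-conjugating enzyme (1.45, corrected 1.18), R3HCC1L (1.27, corrected 1.01), TMEM135 (1.12, corrected 0.88) and MRPS33, a mitochondrial ribosomal protein (1.07, corrected 0.87), with corrected limma adjusted p from 0.0684 to 0.0818. The largest removed falls were CHRND, an acetylcholine receptor subunit (-1.68, corrected -1.50), PIK3CD, a phosphoinositide 3-kinase (-1.52, corrected -1.26), KCNIP3, a calcium-binding channel partner (-1.42, corrected -1.29), and ANKRD9 (-1.42, corrected -0.95), with corrected adjusted p from 0.0514 to 0.113. With a block on the lysate, 52 of the 319 were called with the GC trend removed, CHRND (adjusted p = 0.0479) and ANKRD9 (adjusted p = 0.0358) among them, and edgeR with GC offsets called 74.

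A further 109 genes, 81 higher and 28 lower, were called only once the trend was removed. The rises among them had a median coding GC of 60.9% and the falls one of 44.2%, the reverse of the removed calls. The largest were SCLY, a selenocysteine lyase (1.09, corrected 1.29), HES1, a transcriptional repressor of the Notch pathway (0.90, corrected 1.22), MARCKSL1 (0.73, corrected 1.06) and PDCD6, a calcium-binding protein (0.89, corrected 1.01). Among the falls they were UTRN, the dystrophin relative utrophin (-0.99, corrected -1.19), MYO9A, a myosin (-0.70, corrected -0.95), SRP9, a part of the signal recognition particle (-0.72, corrected -0.91), and ITSN2, an endocytic scaffold (-0.67, corrected -0.89). Their corrected limma adjusted p lay between 0.0172 and 0.0464. With a block on the lysate and no correction, SCLY (adjusted p = 0.0492), PDCD6 (0.0280), UTRN (0.0344) and SRP9 (0.0395) were called too.

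The functional classes were read from 50 gene lists, which hold 2278 (25.4%) of the well-read genes and 77 (37.6%) of the 205 called in both fits. For each list the counts of called members stand beside the shares over all well-read genes, 3.33% higher and 2.51% lower without and 2.53% and 0.969% with the correction, and its median beside 0.04 and 0.03. At an unadjusted p under 0.05 were 26.0% of all well-read genes, and 20.8% with the GC trend removed, and counts of members at that level stand beside these shares. The lists were chosen with earlier results of these data known, so that a share above that of all well-read genes is a description and no support. No list was tested as a set. The medians of 43 lists lay above 0, and of 44 with the GC trend removed. Lysate medians of log2 TE without overlap between genotypes are not particular to the lists where they are named below. Mitosis genes had 0.14 and 0.15 in METTL5-WT against 0.32 and 0.40 in METTL5-KO, and spliceosome genes 0.33 and 0.36 against 0.47 and 0.54. Those of the cytosolic ribosomal proteins overlapped.

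Genes of the respiratory chain, which passes electrons to oxygen in mitochondria, were read by complex. Of 36 complex I subunits, 6 rose and 0 fell, and 7 rose with the GC trend removed, with medians of 0.17 and 0.19. Examples besides NDUFB1 are NDUFB6 (1.00, limma adjusted p = 0.00157) and NDUFA6 (0.92, adjusted p = 0.00701). The complex I lysate medians of log2 TE were 0.66 and 0.57 in METTL5-WT against 0.85 and 0.66 in METTL5-KO, so that replicate 2 of METTL5-KO lay close to the METTL5-WT lysates. In complex III, UQCR10 alone of 9 rose (1.05, adjusted p = 0.00157), and in complex IV, NDUFA4 and COX6C (0.81, adjusted p = 0.00900) of 12 rose, in both fits. The medians were 0.23 and 0.26 for complex III and 0.26 and 0.24 for complex IV without and with the correction.

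Of 21 genes of complex II and the TCA cycle, 1 rose in either fit, FH, which encodes fumarase (0.64, limma adjusted p = 0.0152), with medians of 0.22 and 0.20. Among 19 ATP synthase subunits, ATP5MPL rose in both fits (1.06, adjusted p = 0.00178). Limma called ATP5PD lower once the trend was removed (-0.76, adjusted p = 0.0242). By edgeR, 2 of the 19 were higher and 2 lower, ATP5PD among the latter (adjusted p = 0.0333), and 1 and 1 with GC offsets. The list had medians of 0.24 and 0.14. Of 44 assembly factors of the respiratory chain, SDHAF3 rose in both fits and COA3 with the trend removed (0.69, adjusted p = 0.0231), with medians of 0.22 and 0.18.

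The mitochondrial ribosome, which makes the proteins encoded in mitochondrial DNA, had 7 of 74 members called higher, and 5 with the GC trend removed, with 0 lower. MRPS15 (0.98, limma adjusted p = 0.00409), MRPL17 (0.71, adjusted p = 0.0165) and MRPL42 (0.79, adjusted p = 0.0150) were called in both fits. The lysate medians of log2 TE were 0.41 and 0.45 in METTL5-WT against 0.72 and 0.56 in METTL5-KO, and the median change was 0.28 and 0.24. Of 40 genes of mitochondrial import and folding, 2 rose and 1 fell, and 2 rose with the trend removed, TIMM10 (0.71, adjusted p = 0.0350) in both. TOMM40, the channel of the outer membrane, fell without the correction alone (-0.70, adjusted p = 0.0411), and the medians were 0.08 and 0.16.

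The cytosolic ribosome and its factors make all proteins encoded in the nucleus. Of 65 ribosomal proteins, 3 rose in either fit, RPL35A in both (0.72, limma adjusted p = 0.00952), while edgeR called 3 higher and 2 lower, and 5 and 2 with GC offsets, with medians of 0.01 and -0.03, the former below 0 under quantile normalization and TMM scaling. RPS20 (1.00, adjusted p = 0.0423) and RPS6 (0.81, adjusted p = 0.0358) rose without the correction, and with it under the lysate block (adjusted p = 0.0142 for each). Of 40 initiation factors, 3 rose, EIF5B (0.81, adjusted p = 0.0462), EIF2S1 (0.68, adjusted p = 0.0165) and EIF2A (0.62, adjusted p = 0.0346), with medians of 0.15 and 0.06, the latter at -0.08 under quantile normalization. With the trend removed limma and edgeR called 0 of the 40, and 12 had an unadjusted p under 0.05. EIF5B, which joins the ribosomal subunits, was called with the trend removed under the lysate block (adjusted p = 0.0399). Of 13 elongation and termination factors 0 were called by limma or edgeR in either fit, with 2 at an unadjusted p under 0.05, and their medians were 0.00 and -0.01, the former below 0 under quantile normalization and TMM scaling.

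Of 34 aminoacyl-tRNA synthetases, 2 rose, and YARS, which charges tyrosine tRNA, kept its call (0.62, limma adjusted p = 0.0171). Their medians were 0.18 and 0.08, the latter below 0 under quantile normalization. Of 110 ribosome biogenesis factors, 3 rose and 1 fell, and 2 rose with the trend removed, RRP1 in both (0.88, adjusted p = 0.00923). RRP7A fell without the correction (-0.79, adjusted p = 0.0378), and the medians were 0.14 and 0.05, the latter also below 0 under quantile normalization.

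The proteasome breaks down proteins that carry ubiquitin. Of 37 proteasome subunits, 8 rose and 0 fell, and 6 rose with the GC trend removed, with medians of 0.28 and 0.21. The lysate medians of log2 TE were 1.05 and 1.04 in METTL5-WT against 1.28 and 1.34 in METTL5-KO, with no overlap. PSMA5 (0.93, limma adjusted p = 0.00418), SEM1 (0.89, adjusted p = 0.00812) and PSMB1 (0.81, adjusted p = 0.00502) were the largest of the 5 called in both fits. Of 28 ubiquitin-conjugating enzymes, UBE2K rose in both fits (0.96, adjusted p = 0.0109) and UBE2D1 in 1, with medians of 0.22 and 0.12. By edgeR, 2 of the 28 were higher and 1 lower, and 2 higher and 3 lower with GC offsets.

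CCT5, a subunit of the chaperonin that folds actin and tubulin, was the 1 called of 8 CCT genes (0.88, limma adjusted p = 0.00662), whose medians were 0.37 and 0.21, the latter at -0.00 under quantile normalization. Of 12 prefoldin genes and tubulin cofactors, limma called TBCA higher (0.64, adjusted p = 0.0172) and edgeR called 2, with medians of 0.21 and 0.15. Limma called 0 of the 12 and edgeR 1 with the trend removed, and 4 had an unadjusted p under 0.05. Of 36 chaperones and folding enzymes of the endoplasmic reticulum (ER), MANF rose in both fits (1.01, adjusted p = 0.00409) and DNAJC3 in 1 (0.87, adjusted p = 0.0265). Their medians were 0.15 and 0.05.

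Targets of NRF2, the regulator of the response to oxidants, include enzymes that remove quinones and peroxides. The 47 well-read NRF2 target and redox genes had a median input change of 0.50 and a median RPF change of 0.68. In TE, 4 rose and 2 fell, and 6 rose and 1 fell with the GC trend removed, with medians of 0.21 and 0.17. NQO1, a quinone reductase, rose by 1.14 (limma, adjusted p = 0.00157), SOD1, a superoxide dismutase, by 0.92 (adjusted p = 0.00502), and PRDX3, a mitochondrial peroxidase, by 0.76 (adjusted p = 0.00883), all in both fits. The ferritin heavy chain FTH1, whose translation is governed by iron, fell in both (-0.67, adjusted p = 0.0107), over an input change of 1.06 and an RPF change of 0.38.

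The light chain FTL moved alike (-0.71, limma adjusted p = 0.0465), but lost its limma call with the trend removed, except under the lysate block (adjusted p = 0.0219). The count model with GC offsets called it lower too (edgeR, adjusted p = 0.0217). Limma called the ferritins and no other of 37 genes for iron-sulfur clusters, heme and iron, while edgeR called 2 lower, and 3 with GC offsets, and the medians were 0.10 and 0.16. Of 11 glutathione transferases, 3 rose, and 2 with the trend removed, MGST1 and MGST3 (0.62, adjusted p = 0.0351), with medians of 0.19 and 0.26. GSTO2 rose without the correction (1.02, limma adjusted p = 0.0482), but was not called under the lysate block (adjusted p = 0.0504).

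Of 21 genes governed by ATF4 or by upstream reading frames, PSAT1, an enzyme of serine synthesis, rose in both fits (0.72, limma adjusted p = 0.00956), and ATF4 itself, whose own leader carries upstream reading frames, fell in both (-0.78, adjusted p = 0.0418). The RPF of ATF4 changed by -0.79 and its input by -0.01. The list medians were -0.03 and 0.09, the latter below 0 under quantile normalization. DDIT4 was called with the trend removed (0.48, adjusted p = 0.0477), from a change of 0.11 without it.

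In metabolism, 3 of 37 genes of cholesterol and fatty acid synthesis rose and 1 fell, and 3 rose with the GC trend removed, with medians of 0.22 and 0.14. HMGCS1, which makes HMG-CoA for sterols, rose by 0.80 (limma, adjusted p = 0.00849), EBP by 0.74 (adjusted p = 0.0351), and STARD4, in 1 fit, by 0.72 (adjusted p = 0.0193). Of 29 genes of fatty acid oxidation and ketone metabolism, 3 rose, ACAT1 (0.67, adjusted p = 0.0338), ECI2 (0.63, adjusted p = 0.0478) and ACSL3 (0.57, adjusted p = 0.0411). Limma and edgeR called 0 of the 29 with the trend removed, of which 8 had an unadjusted p under 0.05, and the medians were 0.24 and 0.23.

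Of 28 genes of sugar metabolism, LDHB, a lactate dehydrogenase, rose in both fits (1.20, limma adjusted p = 0.00419), RPE (0.74, adjusted p = 0.0369) and PGK1 (0.54, adjusted p = 0.0410) without the correction and, under the lysate block, with it (adjusted p = 0.0379 and 0.0390). Their medians were 0.03 and 0.17, the former below 0 under quantile normalization. Of 34 genes of amino acid and urea metabolism, OAT rose (0.67, adjusted p = 0.0249) and SRM fell (-0.56, adjusted p = 0.0278), with medians of 0.20 and 0.14. With the trend removed limma and edgeR called 0 of the 34, and 11 had an unadjusted p under 0.05. Of 9 secreted plasma proteins 0 were called by limma or edgeR in either fit, with 2 at an unadjusted p under 0.05 and 4 with the trend removed, and medians of 0.23 and 0.19. Of 22 genes of drug and aldehyde metabolism 0 were called likewise, with 3 at an unadjusted p under 0.05 in either fit, and medians of 0.05, below 0 under quantile normalization, and 0.16. Of 18 hepatocyte transcription factors, RXRA (-0.84, adjusted p = 0.0234) and NR2F1 (-0.80, adjusted p = 0.0420) fell without the correction. With it limma and edgeR called 0 of the 18, and 4 had an unadjusted p under 0.05, while the medians were -0.17 and 0.11.

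DNA replication had the most members called by limma of any list without the correction, and shared that place with the histones, at 8 each, with the trend removed. Lists differ in size, however. By share of rises its 19.0% lay below calcium-binding proteins (30.8%), glutathione transferases (27.3%) and the proteasome (21.6%). With the trend removed its 13.8% lay below those lists, complex I, complex IV and the histones. Of the 58 replication genes, 11 rose and 1 fell, and 8 rose and 0 fell with the GC trend removed, with medians of 0.36 and 0.27. The lysate medians of log2 TE were 0.28 and 0.29 in METTL5-WT against 0.64 and 0.66 in METTL5-KO, with no overlap. Beside TIPIN, the largest were RPA3, a subunit of the protein that coats single-stranded DNA (1.07, limma adjusted p = 0.00463), and POLE3, a subunit of DNA polymerase epsilon (1.03, adjusted p = 0.00157). The median input change of the list was -0.14 and the median RPF change 0.16.

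Of 92 mitosis genes, 4 rose and 1 fell, and with the trend removed 1 rose, with medians of 0.20 and 0.05, the latter below 0 under quantile normalization. CENPW (1.04, limma adjusted p = 0.0220) and CENPL (0.82, adjusted p = 0.0269) rose and CENPB fell (-0.74, adjusted p = 0.0107), all centromere proteins, and with the trend removed CENPW was called under the lysate block (adjusted p = 0.00551). Of 44 replication-dependent histones, which are rich in GC, 2 rose and 1 fell, but 8 rose and 0 fell with the trend removed. HIST4H4 (0.64, adjusted p = 0.0349) and HIST1H4E (0.59, adjusted p = 0.0496) rose in both fits and HIST1H3H fell in 1 (-0.81, adjusted p = 0.0133), and in the other under the lysate block (adjusted p = 0.0394). The histone medians were 0.07 and 0.25, the former at -0.12 under quantile normalization, and near-identical histone genes can share reads.

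Genes of splicing rose in small numbers. Of 71 spliceosome and snRNP genes, 4 rose and 0 fell, and 5 rose with the GC trend removed, with medians of 0.13 and 0.11. LSM5 (0.96, limma adjusted p = 0.00956), LSM8 (0.82, adjusted p = 0.00883) and SNRPD1 (0.79, adjusted p = 0.0114), all ring-forming Sm or Sm-like proteins, were called in both fits. Of 39 splicing regulators, HNRNPA2B1 (1.17, adjusted p = 0.00409) and HNRNPF (0.55, adjusted p = 0.0292) rose in both, and SCAF1 fell in 1 (-0.76, adjusted p = 0.0288), with medians of 0.20 and 0.15.

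Of 86 genes of the RNA polymerases, mediator and TFIID, GTF2B rose (0.82, limma adjusted p = 0.0462) and TAF10 fell (-0.96, adjusted p = 0.0405) without the correction, and POLR2D fell with it (-0.72, adjusted p = 0.0490). Their medians were 0.10 and 0.07. Of 47 RNA decay genes, SMG5, a factor of nonsense-mediated decay, fell in both fits (-0.79, adjusted p = 0.0109) and DDX6 rose in 1 (0.53, adjusted p = 0.0460), with medians of 0.18 and 0.07.

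Chromatin regulators set how DNA is packed and which genes are read. Of 93 genes, 2 rose and 5 fell, and 1 rose and 1 fell with the GC trend removed, with medians of -0.09 and -0.14. The falls with the trend removed were near the background share, and the median was 0.0037 with a coding length trend removed in place of GC and -0.04 with both removed. NSD2, a histone H3 methyltransferase, fell by 1.00 (limma, adjusted p = 0.00387) and was called in both fits, SMARCB1, a subunit of the SWI/SNF remodeler, rose in both (0.51, adjusted p = 0.0425), and CHD4 rose in 1 (0.91, adjusted p = 0.0429). With the trend removed CHD4 was called under the lysate block (adjusted p = 0.0447). Of 162 C2H2 zinc finger genes, 2 rose and 2 fell in either fit, with medians of -0.07 and -0.09. ZNF598, which marks collided ribosomes with ubiquitin, fell by 1.16 (adjusted p = 0.00387), and ZNF770 (0.99, adjusted p = 0.00883) and ZNF460 (0.82, adjusted p = 0.0252) rose, all in both fits.

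In membrane traffic, 6 of 47 Rab and Arf GTPases rose and 0 fell, and 3 rose with the GC trend removed, with medians of 0.27 and 0.18. RAB31 (1.04, limma adjusted p = 0.0131) and ARF4 (0.80, adjusted p = 0.00883) were called in both fits and RAB23 in 1 (0.92, adjusted p = 0.0220). The lysate medians of log2 TE were -0.78 and -0.60 in METTL5-WT against -0.41 and -0.33 in METTL5-KO, with no overlap.

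Of 33 genes for entry of proteins into the ER, 5 rose and 0 fell, and 3 rose and 1 fell with the trend removed. OSTC, of the oligosaccharyltransferase (1.04, limma adjusted p = 0.00701), SPCS3, of signal peptidase (0.89, adjusted p = 0.00894), and DAD1 (0.58, adjusted p = 0.0330) were called in both fits, and the 1 fall was SRP9. The medians were 0.21 and 0.06, the latter below 0 under quantile normalization. Of 75 genes of vesicle coats and exocytosis, COPG2 (0.77, adjusted p = 0.0277) and SEC31A (0.57, adjusted p = 0.0405) rose and MAP11 fell (-1.32, adjusted p = 0.0382). Limma called 0 of the 75 and edgeR 1 with the trend removed, while 14 had an unadjusted p under 0.05, and the medians were 0.14 and 0.09.

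Of 47 lysosomal genes, CTSL, a cathepsin, rose in both fits (0.69, limma adjusted p = 0.0133), ATP6V1C1 without the correction (0.70, adjusted p = 0.0198) and LAMP1 with it (0.45, adjusted p = 0.0436), with medians of 0.15 and 0.17. Of 50 genes of microtubules and their motors, DYNC1LI1, a dynein chain, rose in both fits (0.86, adjusted p = 0.0165), TUBA1C, an alpha-tubulin, fell in both (-0.53, adjusted p = 0.0495), and DYNLT1 rose in 1 (0.75, adjusted p = 0.0289). In all 2 rose and 3 fell without the correction and 1 and 1 with it, and the medians were 0.10 and 0.12.

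Of 60 genes of the nuclear pore and transport, NUP50 (0.84, limma adjusted p = 0.0221), NUP43 (0.77, adjusted p = 0.0277) and IPO11 (0.68, adjusted p = 0.0364) rose and 1 fell, and a different 1 rose and 1 fell with the trend removed. NUP50 was called with the trend removed under the lysate block (adjusted p = 0.0461). The medians were 0.14 and 0.04, the latter below 0 under quantile normalization.

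Solute carriers move small molecules across membranes. Of 156, 1 rose and 4 fell, and 1 rose and 2 fell with the GC trend removed, with medians of -0.10 and -0.02. SLC25A23, a mitochondrial carrier (-0.94, limma adjusted p = 0.00760), and SLC6A8, the creatine transporter (-0.80, adjusted p = 0.0119), fell in both fits, and SLC39A13 in 1 (-1.21, adjusted p = 0.0475). Of 56 genes of matrix, adhesion and junctions, COL27A1 (-1.11, adjusted p = 0.0482), HSPG2 (-0.61, adjusted p = 0.0292) and ITGB5 (-0.53, adjusted p = 0.0386) fell without the correction. With it limma called 0 of the 56 and edgeR 3, while 10 had an unadjusted p under 0.05, and ITGB5 was called by limma under the lysate block (adjusted p = 0.0461). The medians were -0.13 and 0.05, the latter below 0 under quantile normalization.

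Of 74 genes of MAP kinase, mTOR and growth signaling, 2 rose and 3 fell, and 1 rose and 2 fell with the trend removed, with medians of -0.06 and -0.04. The falls of PRKAB1 and of AKT1, a growth factor kinase (-0.77, limma adjusted p = 0.0133), and the rise of MAP3K20, the kinase ZAK that senses stalled ribosomes (0.74, adjusted p = 0.0133), were called in both fits.

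Interferon-stimulated genes, of which IFI44L is one, are switched on in defense against viruses. The 59 well-read ones had a median input change of 1.73 and a median RPF change of 1.93. Their TE medians were 0.14 and 0.17, 1 rose and 1 fell without the correction, and 4 rose and 1 fell with it. IFIT5 rose in both fits (0.93, limma adjusted p = 0.0107) and IFITM2 with the trend removed (0.72, adjusted p = 0.0274). Their RNA and footprints were thus higher together.

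The S100 proteins and some other calcium-binding proteins had the highest list median, 0.52, and 0.43 with the GC trend removed. Of 13 genes, 4 rose and 0 fell in either fit, S100A13 (0.97, limma adjusted p = 0.00532), S100P (0.89, adjusted p = 0.0158) and S100A6 (0.55, adjusted p = 0.0472) in both. The lysate medians of log2 TE were 0.58 and 0.50 in METTL5-WT against 1.68 and 1.35 in METTL5-KO, with no overlap. S100P rose in TE while its input changed by -2.12 and its RPF by -1.23.

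**Figure D4:**
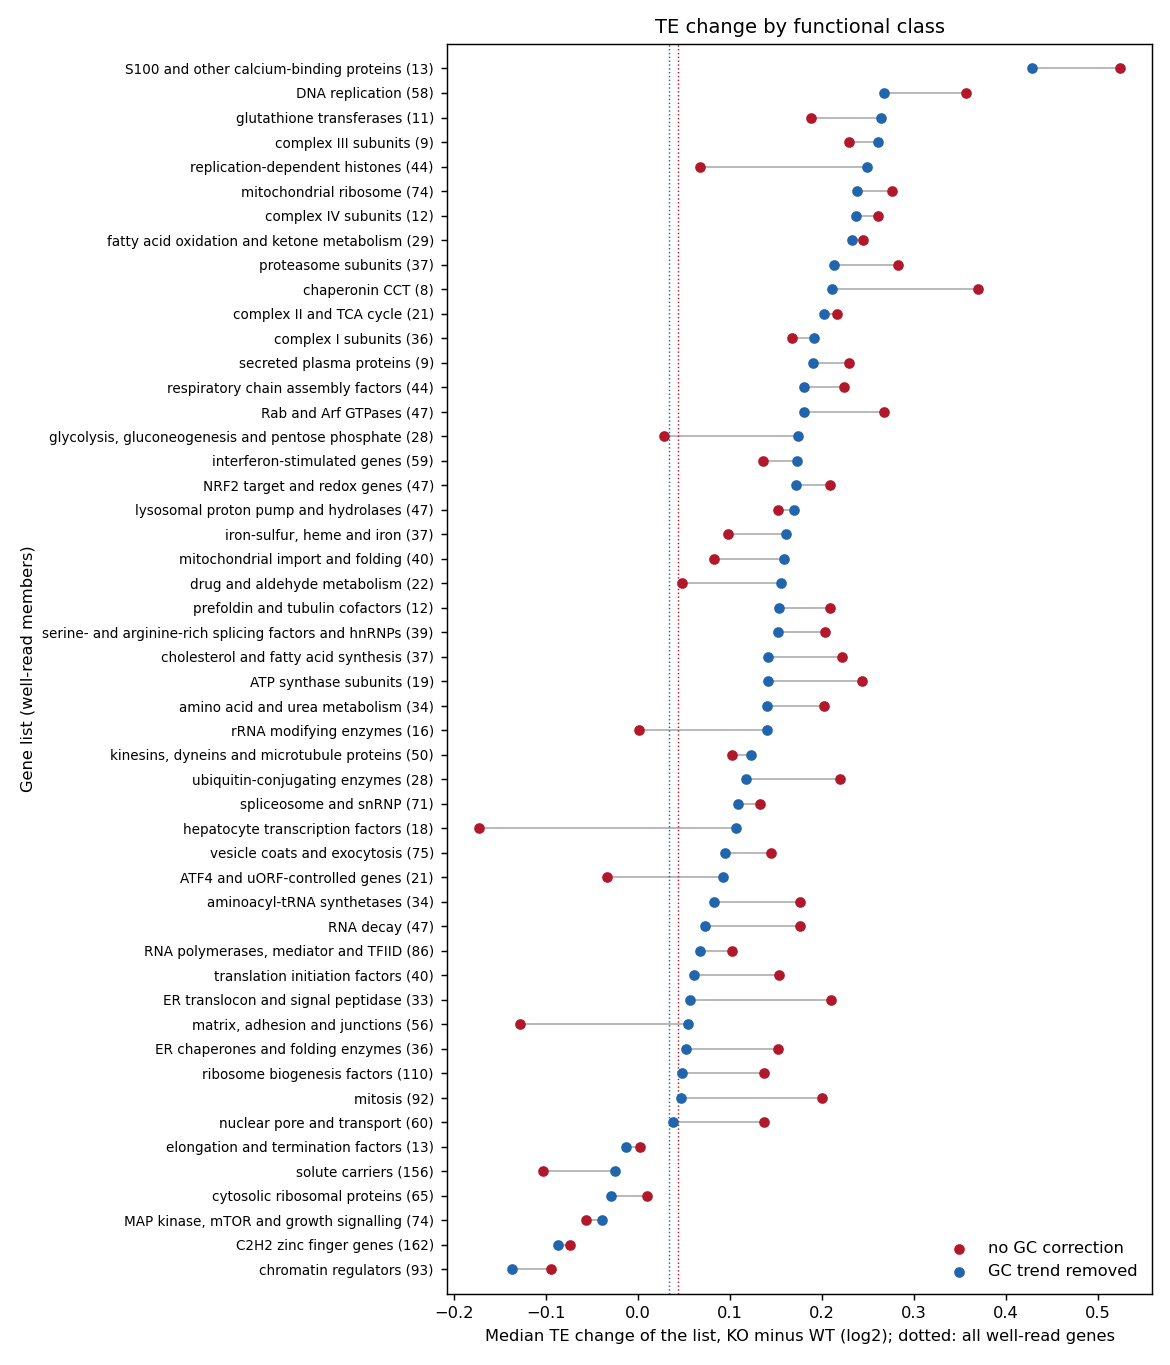
Median TE change (METTL5-KO minus METTL5-WT, log2) of the well-read members of each of 50 gene lists, without correction (red) and with the GC trend removed (blue), with the number of members in parentheses and dotted lines at the medians of all well-read genes. Calcium-binding proteins lie farthest to the right in both fits, and chromatin regulators and C2H2 zinc finger genes lie below 0 in both fits.

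Many of the named rises encode short proteins, and coding length was therefore described for all well-read genes. The median coding length was 1437 nt over all of them, 930 nt for the 299 rises and 2082 nt for the 225 falls, and 693 and 1905 nt for the rises and falls called with the GC trend removed. With the GC trend removed, the median TE change was 0.24 for the 165 genes of up to 300 nt, 0.19 for the 923 of 301 to 600 nt, 0.10 for the 3627 of 601 to 1500 nt, 0.01 for the 2846 of 1501 to 3000 nt and -0.14 for the 1414 longer ones. Of the same classes, rises made up 12.7%, 8.34%, 2.67%, 1.02% and 0.212%, and falls 1.21%, 0.650%, 0.772%, 0.773% and 2.05%. The shorter the coding sequence, the higher was the TE change and the more often was it called a rise.

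**Figure D5:**
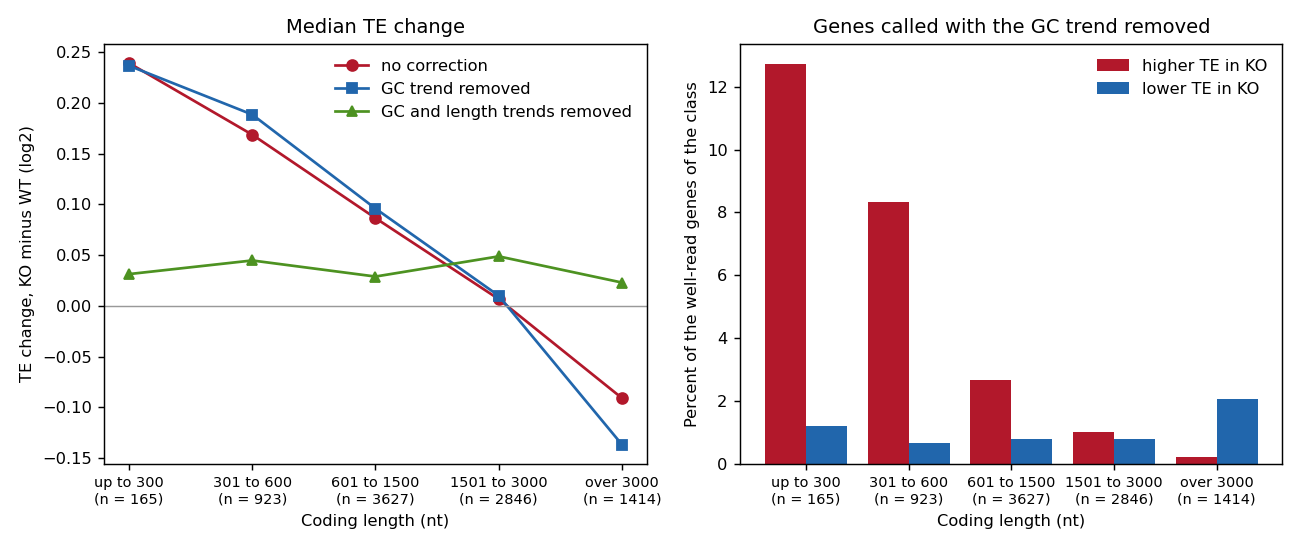
Left, median TE change (METTL5-KO minus METTL5-WT, log2) of well-read genes in 5 classes of coding length without correction (red), with the GC trend removed (blue) and with the GC and length trends removed (green). Right, percent of each class called with higher (red) and lower TE (blue) with the GC trend removed. The blue line falls from 0.24 to -0.14 and the green one stays between 0.02 and 0.05.

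The rank correlation of TE change with coding length across 8975 genes was -0.190, and -0.288 with the GC trend removed, a description across genes of the same libraries. When a length trend was removed from each library after the GC trend, 184 genes were called, 120 higher and 64 lower, and the class medians lay between 0.02 and 0.05. Lists of short genes moved with it: the 36 complex I subunits have a median coding length of 447 nt, the 44 histones 381 nt and the 13 calcium-binding proteins 303 nt, while the 93 chromatin regulators have 3894 nt. The median of complex I was 0.07 with both trends removed and that of the ATP synthase subunits fell below 0. In the same fit it was 0.09 for the histones, 0.06 for complex IV and for the Rab and Arf GTPases, and 0.12 for the mitochondrial ribosome. The calcium-binding proteins stayed at 0.31 and DNA replication at 0.29. The 5′ untranslated region had a median length of 132 nt over all well-read genes, 108 nt for the rises and 202 nt for the falls.

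At the threshold of 50 normalized reads, B3GLCT (RPF mean 50.1), ATP8B3 (input mean 50.1) and HACE1 (RPF mean 50.1) lay just inside and ARHGAP32, BOC and TGM2 just outside, at means that round to 50.0. A total of 349 members had a mean under 50 in at least 1 of the 4 groups of libraries and so counted as well read through the others, and 13 of them (3.72%) were called, 8 with the GC trend removed. Only 10 members had 3 or fewer reads in a library, of which the 2 called were MGST1 and IFI44L.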

How the data were processed

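Input and RPF libraries were made from the same lysates of METTL5-WT and METTL5-KO cells, 2 lysates for each genotype. According to the methods and the labels, the authors trimmed reads with BBDuk, checked them with FastQC 0.11.5, aligned input reads to hg38 with STAR 2.7.3a and counted uniquely mapped input reads over exons by strand with featureCounts, given as 1.6.0 there and as another release in the file header. RPF reads went to the RiboToolkit server, where reads with a single mapping position were kept. The deposited table of 11244 genes is named RPKM, but every deposited value is a normalized signal, whole reads times 1 constant for each library, with no division by gene length. Whole reads were recovered for 100% of the values within 0.001 of a read. For the input libraries they equaled the deposited raw counts, a second table of 60718 genes from which 3 broken lines were left out, in 100% of cases. The columns of log2 fold changes and p-values that the authors deposited for their own comparison were not used.

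Genes that averaged 1 or more normalized reads in input and also in RPF were fitted on log2(value + 1) with limma 3.58.1 (R 4.3.3) as genotype, library type and their interaction over all 8 libraries, with a variance trend and no block. Tests were two-sided, with Benjamini-Hochberg adjustment over all genes tested and a threshold of 0.05. A fold change on this scale understates the change of low genes. The plan had assumed values per gene length and put this fit first, so that the count test, edgeR 4.0.16 on the recovered reads, stands beside it. For the GC version, a loess curve (span 0.3) on coding GC content (GENCODE 44, found for 11224 genes) was taken from the deviation of each library. The fits were also run on simulated counts. These had the same spread for every gene and, where a GC trend was set, had it in METTL5-KO RPF alone. The GC difference between the METTL5-KO input libraries was not simulated, so that the simulation does not vouch for the calls.

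An input and an RPF library of the same number came from the same lysate, and a block on the lysate is therefore given where it changes a call. Their deviations from the group means correlated at -0.016 in METTL5-WT and 0.053 in METTL5-KO. Numbers shared between genotypes mark nothing stated (0.039 for input, -0.002 for RPF).

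The genes and lists were chosen with earlier results of these data known. Named were METTL5 and TRMT112, the 10 largest rises and 10 largest falls called by limma in both fits and by edgeR with lysates that did not overlap, the 4 largest in each direction whose call the GC correction removed or added, and up to 3 called members of each list. Of these, 1 rise is not reported here, and it was left out of its list, whose name and members were set again for that reason. The TE table gives no depth beyond its reads, which limit genes of few reads. Scaling, pseudocount, filters, span, GC measure, count models, blocks and each left-out lysate were tried as alternatives. Limma-voom, edgeR with the lysate block and the fit over well-read genes without the variance trend were added after seeing the data.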

Additional observations from a re-analysis of the deposited data

How the results depend on the processing

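Of the 524 genes called without and the 314 called with the GC correction, the count stayed within 1.5 times under 16 and 18 alternatives. DESeq2 called 832 without it, and edgeR with GC offsets 488. With a block on the lysate, limma called 771 and 459, 523 and 313 of the unblocked calls among them, and edgeR 882 and 502. A block on the replicate number gave 573 and 326. The lysate block changed the call of no named gene beyond those whose blocked p is given. Limma-voom called 717 and 418. Fewer calls came from limma without the variance trend (1 and 0), the same over well-read genes alone (4), a change of at least 2-fold at an unadjusted p under 0.05 (154 and 78) and removal of GC and length trends (184). Leaving out 1 lysate gave 4 to 234 calls, and 4 to 162 with the GC trend removed. The cause of these differences was not tested, beyond the smaller number of libraries.

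With the GC trend removed, the RPF was called in the same direction for 258 genes instead of 409, and input in the opposite one for 67 instead of 131, in step with fewer TE calls. The higher share was 57.1% without and 72.3% with the correction, and 47.2% and 57.8% by edgeR, 49.1% and 58.4% by limma-voom, 64.4% with libraries centered on their median and 41.9% in both fits under quantile normalization. The number of lists with a median above 0, 43, lay between 35 and 47 over 46 alternatives, and 28 of 50 lists kept the sign of their median in all of them. By edgeR without and with GC offsets, 10 and 6 chromatin regulators, 8 and 5 solute carriers, 8 and 3 genes of growth signaling and 6 and 2 of matrix and adhesion were lower.

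Among the named genes, 3823 values kept direction and call, 2413 lost the call and 96 gained it. A change of sign occurred in 27 values, all but those of DDIT4 and HSPG2 for TRMT112, whose change lay at -0.00. It was 0.020 with centered libraries and -0.23 to 0.23 without 1 lysate. With the GC trend removed it was 0.19 under the chosen setting, TMM scaling, centering, no variance trend, no filter, a pseudocount of 0.1, a span of 0.7 and either block, 0.18 with a pseudocount of 5 and over well-read genes alone, 0.13 with whole-transcript GC, 0.24 with GC of codon ends, 0.12 under quantile normalization, 0.030 with length also removed, 0.15 by edgeR, 0.16 by edgeR with the lysate block and by limma-voom, and 0.041, 0.35, 0.36 and 0.0040 without METTL5-KO replicate 1, METTL5-KO replicate 2, METTL5-WT replicate 1 and METTL5-WT replicate 2. DDIT4 was at -0.030 under quantile normalization and HSPG2 at 0.039 with GC and length removed. Depth limits genes of few reads, such as MGST1 and IFI44L.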
